A study of Mus musculus with 6 samples.

Results

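The axon guidance ligands and receptors examined here are the ephrins and Eph receptors, the semaphorins with the plexins and neuropilins, the netrins and netrin-G proteins with the Unc5 receptors, and the Slits with the Robo receptors. The rule used the gene symbol and no measured value, but it was set with earlier results of these data known. The array listed 101 probes of 65 such genes among 25697 probes of 18138 gene symbols. A probe was tested if its detection p-value was under 0.05 on at least 3 of the 6 arrays, which left 71 probes of 50 genes among 14215 tested probes of 10548 symbols.

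The study asked what the human sex-determining gene SRY does when it is active throughout the mouse body. RNA of whole brain from male FVB mice (FVB/N in the study's methods) at postnatal day 6 was hybridised to Illumina MouseRef-8 bead arrays, 3 arrays for hSRY-ON and 3 for hSRY-OFF. All 6 animals carried the Signalox-hSRY transgene, a single copy at the H11 locus on chromosome 11. In hSRY-OFF animals the cassette was not recombined, and the ubiquitous CAG promoter drove the red fluorescent protein DsRed2. In hSRY-ON animals Cre recombinase, supplied by the oocyte of a Ddx4-Cre mother, had removed DsRed2 at the single-cell stage, so that CAG drove FLAG-tagged human SRY together with EGFP. Animals that had inherited Ddx4-Cre itself were not used for the hSRY-ON group. The groups therefore also differed in the fluorescent protein and in the genotype of the mother, whose parts cannot be told apart from that of SRY, and all animals came from 1 transgenic line. The hSRY-ON pups were growth-retarded. The array has no probe for the human transgene, so the recombination could not be checked in these data.

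Growing axons find their targets through cues that attract or repel the growth cone. Ephrins are held in the membrane of one cell and bind Eph receptor tyrosine kinases on another. Class 3 semaphorins are secreted and act through a neuropilin paired with a plexin, whereas most membrane-bound semaphorins bind plexins directly. Netrins attract axons through Dcc and repel them through Unc5 receptors, and Slits repel axons that carry Robo receptors. In the early postnatal brain the same proteins also take part in cell migration, synapse formation, myelination and vessel growth.

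The 6 arrays were alike in depth of signal, with 53.8% to 55.9% of the listed probes detected and a median intensity between 200.2 and 219.8. Correlations of log2 values over all tested probes were 0.994 at the highest within hSRY-OFF and 0.986 at the lowest between the groups, and hSRY-ON array 3 stood apart from the other 5 on the second principal component. Neuronal markers were present on every array, although the Snap25 and Nefl probes were detected on none. Mitosis genes were lower in hSRY-ON in 16 of 16 probes, 10 of them past the test, and 14 of 15 myelin probes were lower, 3 of them past the test. Of 10 astrocyte probes 7 were lower and 3 higher, with Aqp4 and Gfap called lower. Of 9 neuronal probes 4 were higher and 5 lower, with a median of -0.02, and Gap43 was called higher. None of the microglial, meningeal, erythroid or granule precursor markers was called by limma, although the summed normalized signal of the microglial probes was 3520 to 3783 in hSRY-OFF and 4342 to 4619 in hSRY-ON. Apoa1 of the liver list and Acta1 of the muscle list were called higher, each the only tested probe of its list, and Alb, Fgb and Ckm were detected on no array. In RNA from whole brain, fewer cells of a type and less RNA per cell cannot be told apart.

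Of the 71 tested probes, 1 passed the test, a probe of Epha8 that was lower in hSRY-ON. The test was limma's moderated test on log2 intensities with Benjamini-Hochberg adjustment over all 14215 probes and a threshold of 0.05. Over the whole array 311 probes passed, or 2.19% of those tested (0.865% higher and 1.32% lower in hSRY-ON), against 1.41% of the guidance probes. At an unadjusted p under 0.05 there were 13 guidance probes, 7 higher and 6 lower, which is 18.3% of them, where the whole array had 20.9% (10.1% higher and 10.9% lower). The 3 values of one group lay wholly above or below those of the other in 19 guidance probes, 11 higher and 8 lower, which is 26.8%, beside 27.7% of all tested probes (13.5% higher and 14.2% lower). By each of these counts the guidance genes were close to the array as a whole.

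The sizes of the differences were also close to those of the array. The median log2 difference, hSRY-ON minus hSRY-OFF, was 0.02 over the guidance probes and 0.0048 over all tested probes, and the median absolute difference was 0.12 beside 0.14. For 67 of the 71 probes the 95% interval lay within 1 on the log2 scale, and for 56 it lay within 0.58, which is a change of 1.5-fold. The same limits held 96.5% and 73.7% of all tested probes. Of the 71 guidance probes 6 had an absolute difference of at least 0.5, those of Epha8, Epha7, Ntn2l, Ntng1, Plxnb3 and Slit3. That is a larger share than the 5.86% of all tested probes that reached this size, a difference that was not tested. Replicates of one group had a median SD of 0.12 in hSRY-OFF and 0.14 in hSRY-ON over the guidance probes. When each array was left out in turn, the difference of 55 of the 71 probes moved by more than 1.5 times at least once, and probes of Efna5, Efnb3, Epha7, Epha8, Ephb4, Nrp1, Ntn2l, Plxnb3, Sema3f, Sema4b, Sema4g, Sema5a, Sema6a, Sema7a and Slit3 did not.

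Slightly more guidance probes lay above 0 than below it, 45 against 26, or 63.4% beside 51% of all tested probes. The split depended on the scaling and on single arrays. It was 37 against 34 after median scaling and 36 against 35 without hSRY-ON array 3, and without hSRY-OFF array 1 it was 35 against 36. The 45 ligand probes had a median difference of 0.03. Of them 8 (17.8%) had an unadjusted p under 0.05 and 12 (26.7%) had no overlap of the groups. The 26 receptor probes had a median of 0.0026, with 5 (19.2%) and 7 (26.9%) respectively. Over all tested probes these shares were 20.9% and 27.7%.

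**Figure D1:**
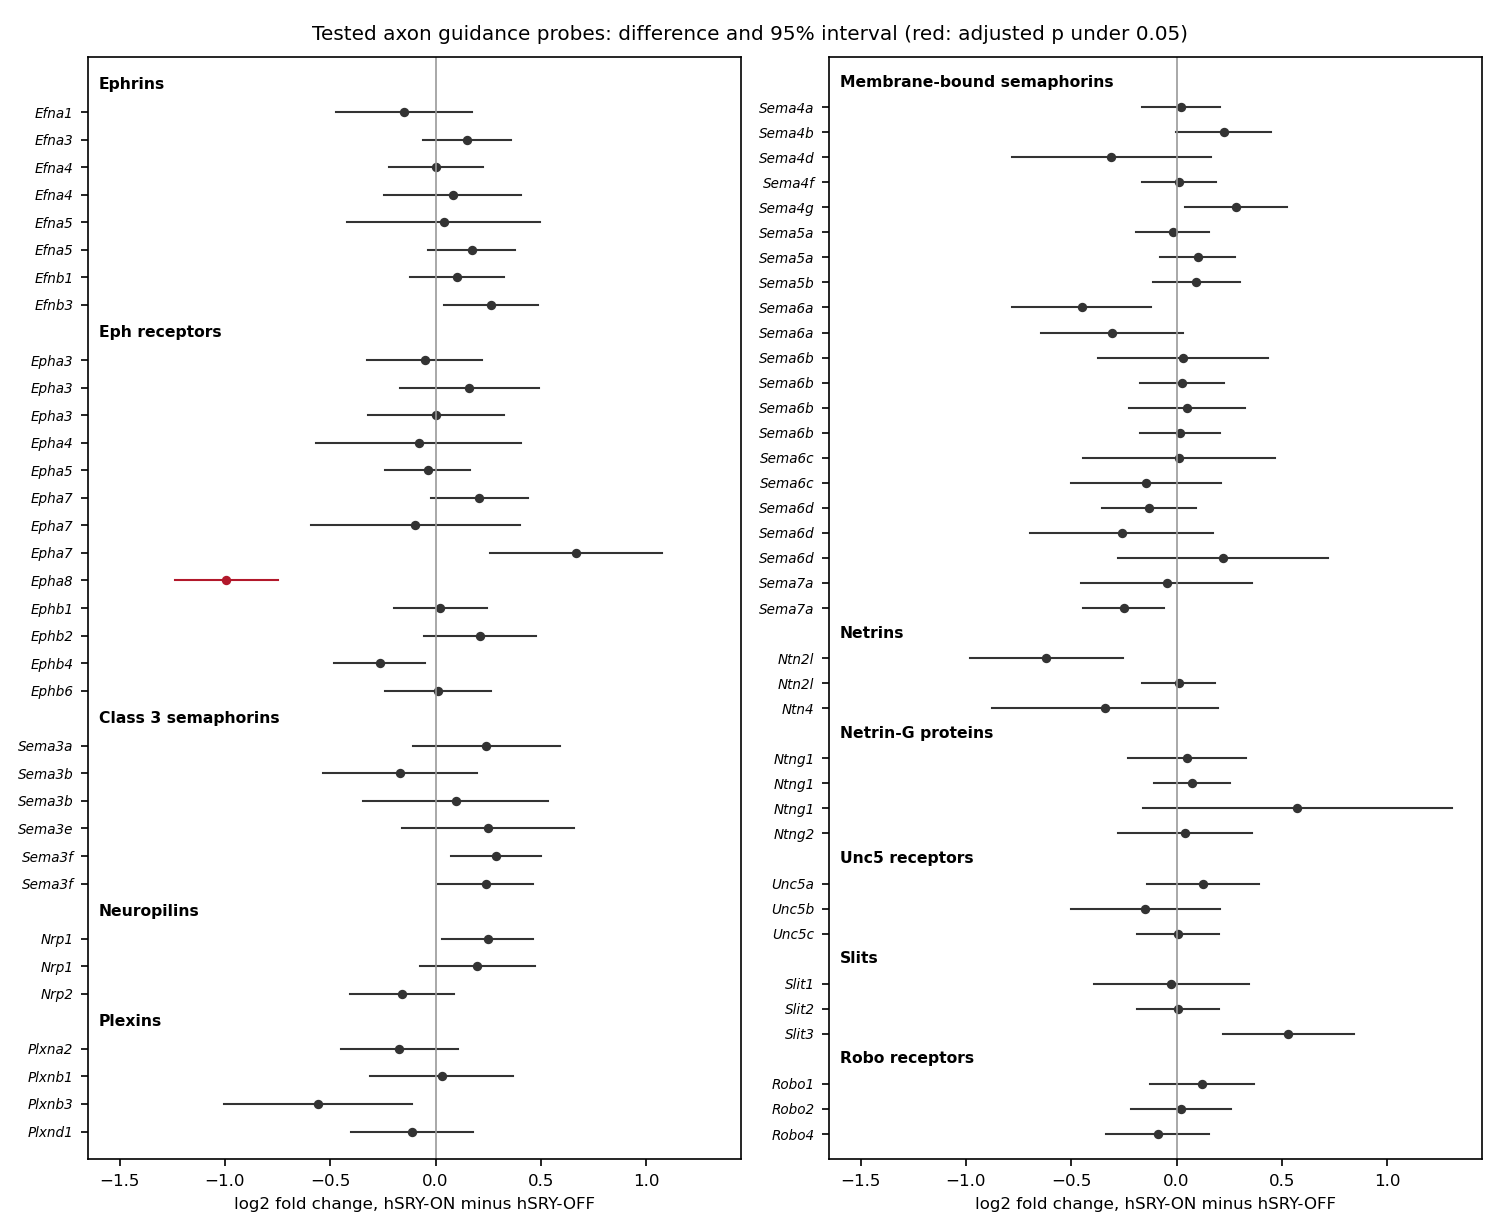
Log2 difference between hSRY-ON and hSRY-OFF (horizontal axis, log2 units) for the 71 tested probes of axon guidance genes, grouped by family, with points for the fitted difference and bars for its 95% interval. Most intervals cross 0. The Epha8 probe, in red, was called, but its hSRY-ON signal was not above background, so its point and bar show the fitted value, and only a bound of at least 1.46-fold on this scale holds.

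Epha8, an Eph receptor of midbrain and other neurons that binds ephrin-A ligands, was lower in hSRY-ON. Its deposited intensities were 225, 211 and 213 on the hSRY-OFF arrays and 176, 177 and 171 on the hSRY-ON arrays. The dimmest probes called detected had intensities between 191 and 203 on the hSRY-OFF arrays and between 184 and 197 on the hSRY-ON arrays. Epha8 therefore stood a little above the limit of detection in all 3 hSRY-OFF animals and under it in all 3 hSRY-ON animals, with detection p-values of 0.00376 to 0.00752 and 0.094 to 0.269. After background correction and normalization the log2 values were 5.95, 5.95 and 6.05 in hSRY-OFF and 4.91, 5.18 and 4.88 in hSRY-ON. The means were 5.98 ± 0.06 and 4.99 ± 0.16 (SD, n = 3). The fitted difference was -0.99 with an SE of 0.10 and an adjusted p of 0.0242, but its hSRY-ON side rests on values that are not above background.

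Because Epha8 was not above background in hSRY-ON, only a bound can be given for its difference. On the background-corrected scale, against the dimmest detected signal of each hSRY-ON array, Epha8 was at least 1.46-fold lower. It had passed the detection filter through the hSRY-OFF arrays alone, the only one of the 71 probes without a detection in one of the groups. The bound holds for that scale alone, since the whole log2 difference was -0.28 when no background correction was applied. The call was lost without hSRY-OFF array 1, 2 or 3 and without hSRY-ON array 1 or 2, with adjusted p between 0.0578 and 0.109. In those 5 fits 0 or 1 of all tested probes were called. With the replicate number as a block the adjusted p was 0.099. Among the 63 guidance probes detected on all 6 arrays limma called 0, with 12 at an unadjusted p under 0.05, and 2.2% of all probes detected on all arrays were called.

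SRY binds the core sequence AACAAT, so the promoters of the guidance genes were searched for it. The window was the 250 bases before each RefSeq start site in GRCm38.p6, read on both strands, where the opposite strand reads ATTGTT. Of 59 promoters of 45 tested guidance genes, 3 held the sequence, or 5.08%, and of all 32851 promoters 9.42% did. The 3 belong to Ephb1, Sema4d and Plxnb3, a plexin described further on. The promoters of Epha8, the one gene that passed the test, at chr4:136956817-136957066 on the minus strand, and of Plxnb3, at chrX:73756853-73757102 on the plus strand, are shown 5′ to 3′ with the matching bases in capitals.
Epha8: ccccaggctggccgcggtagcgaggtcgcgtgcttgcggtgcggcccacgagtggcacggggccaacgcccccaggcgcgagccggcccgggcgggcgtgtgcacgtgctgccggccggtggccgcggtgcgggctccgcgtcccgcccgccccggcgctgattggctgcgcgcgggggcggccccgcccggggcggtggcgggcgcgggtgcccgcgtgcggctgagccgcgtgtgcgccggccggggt
Plxnb3: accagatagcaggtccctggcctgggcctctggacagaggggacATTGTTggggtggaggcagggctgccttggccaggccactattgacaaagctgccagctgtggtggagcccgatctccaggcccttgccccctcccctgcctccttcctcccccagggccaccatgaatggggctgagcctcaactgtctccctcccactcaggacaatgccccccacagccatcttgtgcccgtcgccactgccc
The match in Plxnb3 begins 206 bases before the start site, and Epha8 has none in this window. A match of these letters is a description and no evidence of binding, and its absence says nothing about the factor.

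Of the 13 tested Eph receptor probes, 7 were above 0 and 6 below it, with a median of 0.0003 that turned to -0.02 under median scaling and ran from -0.06 to 0.03 when 1 array was left out. A larger difference than at most guidance probes was seen at 1 of 3 probes for Epha7, a receptor whose ephrin-A ligands are graded across the visual system and cortex. This probe gave 5.998, 6.18 and 6.43 in hSRY-OFF and 7.13, 6.92 and 6.55 in hSRY-ON. Every hSRY-ON value lay above every hSRY-OFF value, with means of 6.20 ± 0.22 and 6.87 ± 0.29 (SD, n = 3). The difference of 0.67 (95% interval 0.26 to 1.08) had an adjusted p of 0.0928. The other Epha7 probes gave differences of 0.21 with no overlap of the groups and -0.10 with overlap, at adjusted p of 0.279 and 0.836, so the probes of this gene did not give 1 direction on all arrays. The third probe turned to 0.10 without hSRY-OFF array 3 and to 0.05 without hSRY-ON array 3.

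Ephb4, which binds ephrin-B2 and is best known from veins, had 6.15, 6.17 and 6.33 in hSRY-OFF and 5.99, 5.85 and 6.03 in hSRY-ON. The groups did not overlap, and the difference was -0.26 with an SE of 0.09 and an adjusted p of 0.164. Of 9 tested probes for endothelial markers, 5 were lower and 2, Flt1 (0.49) and Slc2a1 (0.60), higher at an unadjusted p under 0.05. That is 77.8% of the list, beside 20.9% of all tested probes, and none passed the adjusted test. The summed normalized signal of the 9 probes ran from 7399 to 7741 in hSRY-OFF and from 6974 to 7412 in hSRY-ON. The defining marker Kdr was detected on no array, and the part of these markers in the Ephb4 values was not tested. Ephb1, a receptor of ephrin-B ligands, differed by 0.02 (95% interval -0.20 to 0.24), a value that was within the spread of the arrays. The probes of Epha3, Epha4 and Epha5 lay between -0.08 and 0.16, and Ephb2 and Ephb6 gave 0.21 and 0.01, all with overlapping groups.

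Ephrins, the ligands of these receptors, had 7 of 8 probes above 0 and a median of 0.09, which was 0.05 without hSRY-OFF array 1 and 0.20 without hSRY-OFF array 3. Efnb3, an ephrin-B that keeps corticospinal axons from recrossing the midline, had 7.92, 7.84 and 7.75 in hSRY-OFF and 7.96, 8.17 and 8.17 in hSRY-ON. Its difference was 0.26 with an SE of 0.09 and an adjusted p of 0.175, and the groups did not overlap. Efna5, a repellent of retinal axons, had 11.43, 11.28 and 11.44 in hSRY-OFF and 11.62, 11.46 and 11.58 in hSRY-ON at 1 probe. The groups were separated by a narrow gap, with a difference of 0.17 (adjusted p 0.314), and the other Efna5 probe gave 0.04. Efna3 also showed no overlap, at 0.15, and the remaining ephrin probes, of Efna1, Efna4 and Efnb1, lay between -0.15 and 0.10.

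Class 3 semaphorins, the secreted repellents, had 5 of 6 probes above 0 and a median of 0.24. The median was 0.12 without background correction and 0.15 without hSRY-ON array 3. With no filter on dim probes it was 0.10 over 11 probes, 8 above and 3 below 0. Sema3f, which acts through neuropilin-2, was measured by 2 probes that both had an unadjusted p under 0.05. The first gave 9.87, 9.67 and 9.64 in hSRY-OFF and 10.07, 9.998 and 9.97 in hSRY-ON. Its groups did not overlap, and the difference was 0.29 with an SE of 0.09 and an adjusted p of 0.14. The second gave 9.10, 9.12 and 9.32 against 9.43, 9.32 and 9.50, where the groups touched, with a difference of 0.24 and an adjusted p of 0.22. Sema3a, the ligand of neuropilin-1, differed by 0.24 (SE 0.15, adjusted p 0.401), and leaving out 1 array moved this between 0.15 and 0.41. Sema3e was detected on 1 hSRY-OFF and 2 hSRY-ON arrays and differed by 0.25 (adjusted p 0.46), and the Sema3b probes gave -0.17 and 0.10. Leaving out 1 array moved Sema3e between 0.10 and 0.44, the first Sema3b probe between -0.27 and -0.01 and the second between -0.03 and 0.29.

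Neuropilins carry the class 3 signal into the cell with a plexin. Nrp1 had 10.61, 10.39 and 10.47 in hSRY-OFF and 10.70, 10.83 and 10.68 in hSRY-ON at 1 probe, without overlap. The difference there was 0.25 with an SE of 0.09 and an adjusted p of 0.186, and the second Nrp1 probe gave 0.20 (adjusted p 0.376), and 0.10 without hSRY-ON array 2. Nrp2 was near the limit of detection, found on 2 hSRY-OFF arrays and 1 hSRY-ON array, and differed by -0.16 (adjusted p 0.426).

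Plexins, the signalling receptors of the semaphorins, had 3 of 4 probes below 0. Plxnb3, a receptor of Sema5a found mainly in oligodendrocytes, gave 6.88, 7.16 and 7.28 in hSRY-OFF and 6.90, 6.56 and 6.19 in hSRY-ON. The highest hSRY-ON value lay just above the lowest hSRY-OFF value, so the groups overlapped by 0.01. Means were 7.11 ± 0.20 and 6.55 ± 0.35 (SD, n = 3), with a difference of -0.56 (95% interval -1.01 to -0.11) and an adjusted p of 0.16, and without hSRY-ON array 3 the difference was -0.38. Plxna2, a neuronal plexin, gave 10.11, 10.07 and 10.04 against 10.04, 10.01 and 9.65. Its difference of -0.17 rested on hSRY-ON array 3, since it was -0.05 without that array. Plxnd1, which binds Sema3e in vessels and neurons, differed by -0.11, and Plxnb1, the receptor of Sema4d, by 0.03.

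Membrane-bound semaphorins, classes 4 to 7, had 12 probes above and 9 below 0 and a median of 0.01 that fell to -0.00078 under median scaling. Without hSRY-OFF array 1 or hSRY-ON array 3 the split was 8 against 13, with medians of -0.017 and -0.014. Without hSRY-ON array 1 it was 10 against 11, with a median of -0.010. Sema6a, a transmembrane ligand of plexin-A2 and plexin-A4 that is also made by oligodendrocytes, had both probes lower without overlap. The first gave 7.02, 7.33 and 6.84 in hSRY-OFF and 6.55, 6.53 and 6.77 in hSRY-ON, a difference of -0.45 with an SE of 0.14 and an adjusted p of 0.136. The second gave 7.25, 7.59 and 7.03 against 6.99, 7.01 and 6.95, a difference of -0.31 and an adjusted p of 0.271, which was -0.15 without hSRY-OFF array 2. Sema4d, which is also made by oligodendrocytes, had overlapping groups and a difference of -0.31 (adjusted p 0.422) that ran from -0.49 to -0.15 when 1 array was left out.

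Because Plxnb3, Sema6a and Sema4d are known from oligodendrocytes, the markers of that lineage are given beside them. None of the 3 passed the test, and they were set side by side after their values were seen. All 3 were lower, and they are not a full list of guidance genes known from these cells. Efnb3 and Sema5a, also known from oligodendrocytes, gave 0.26 and, at 2 probes, -0.02 and 0.10. The summed normalized signal of 15 myelin probes ran from 35901 to 46440 in hSRY-OFF and from 27935 to 28632 in hSRY-ON, with 14 of 15 lower, a median difference of -0.47 and 3 calls, at probes of Mobp and Ugt8a. The summed signal of 7 oligodendrocyte precursor probes ran from 16600 to 16793 and from 14412 to 15069, with 1 call, for Gpr17. Of these 7 probes 4 were lower and 3 higher, the latter for Pdgfra (0.19, groups without overlap) and Bcan (0.09 and 0.07), and the median was -0.07. Their part in the values of the 3 guidance genes was not tested.

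Sema7a, a membrane-anchored semaphorin that promotes axon growth through integrins, had 11.41, 11.34 and 11.36 in hSRY-OFF and 11.11, 11.21 and 11.03 in hSRY-ON. These values were tight and did not overlap, with a difference of -0.25, an SE of 0.08 and an adjusted p of 0.148, while the other Sema7a probe gave -0.05. Sema4g, a transmembrane semaphorin of the developing brain, had 10.37, 10.28 and 10.41 against 10.82, 10.57 and 10.51. All hSRY-ON values were above all hSRY-OFF values, with a difference of 0.28, an SE of 0.10 and an adjusted p of 0.177. Sema4b likewise did not overlap, at 0.22 (adjusted p 0.241). Sema4a, also known from immune cells and the retina, differed by 0.02 (95% interval -0.17 to 0.21). Among the others, 4 Sema6b probes lay between 0.02 and 0.05, and those of Sema4f, Sema5a, Sema5b, Sema6c and Sema6d between -0.26 and 0.22, with more than 1 direction for Sema5a, Sema6c and Sema6d.

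**Figure D2:**
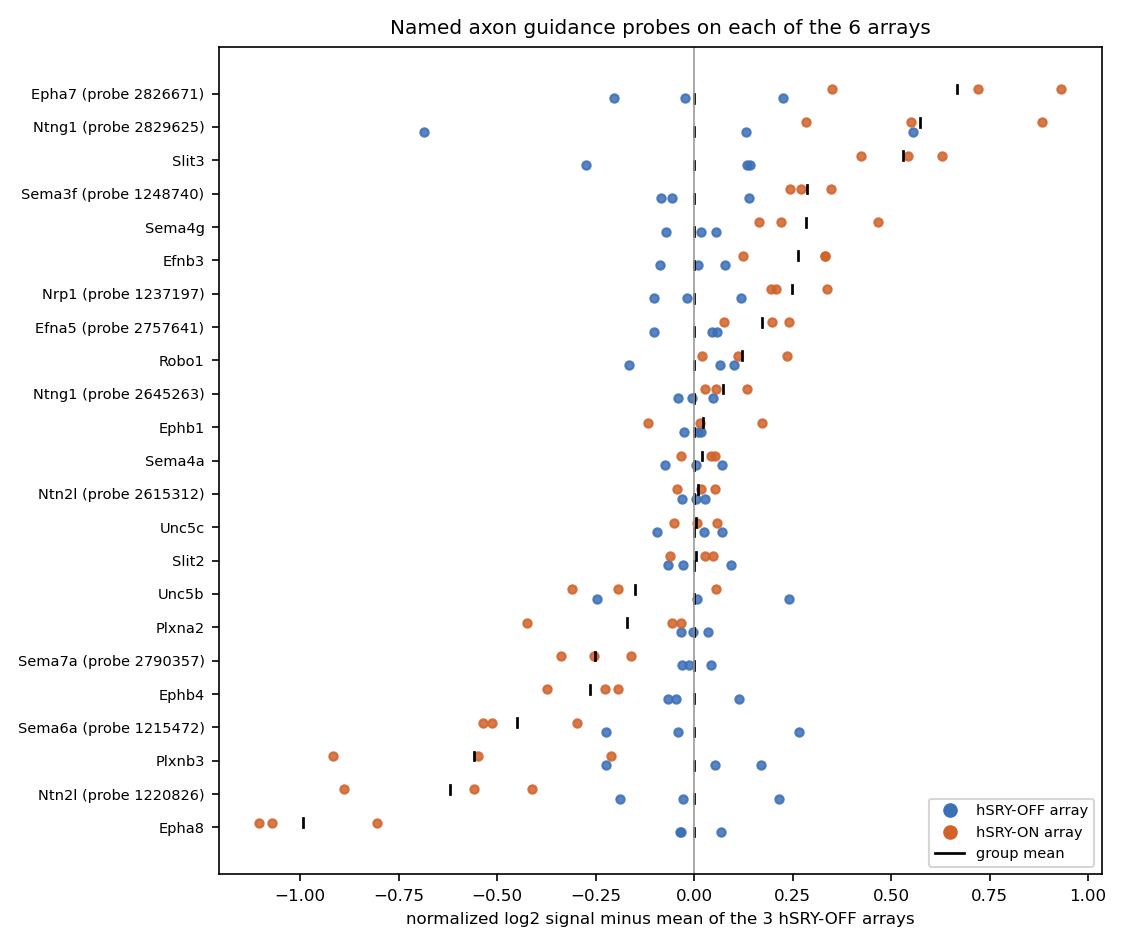
Normalized log2 signal on each of the 6 arrays minus the mean of the 3 hSRY-OFF arrays (horizontal axis, log2 units) for the named probes, with 1 point per array and a black mark at each group mean. Epha7, Slit3 and Sema3f lie higher and Epha8, 1 probe of Ntn2l and Sema6a lower in hSRY-ON without overlap. The hSRY-ON points of Epha8 are values not above background. The groups of Plxnb3 and the Ntng1 probe at 0.57 overlap.

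Slit3, a ligand of Robo receptors that is also made outside the nervous system, had 6.18, 6.19 and 5.77 in hSRY-OFF and 6.68, 6.59 and 6.47 in hSRY-ON. Every hSRY-ON value was higher, the means were 6.05 ± 0.24 and 6.58 ± 0.10 (SD, n = 3), and the difference of 0.53 (95% interval 0.22 to 0.84) had an adjusted p of 0.0864. Slit1 and Slit2, the Slits best known from midline and forebrain guidance, differed by -0.02 and 0.0046. For Slit2 the 95% interval was -0.19 to 0.20. The Robo receptors gave 0.12 for Robo1, 0.02 for Robo2 and -0.09 for the endothelial Robo4, and all 3 had overlapping groups. Robo1 was 0.04 without hSRY-OFF array 2 and 0.06 without hSRY-ON array 3.

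Netrin-3, listed on the array under its older symbol Ntn2l, is a secreted netrin of sensory and motor ganglia, and its 2 probes did not give 1 result. The first gave 7.37, 6.97 and 7.13 in hSRY-OFF and 6.60, 6.27 and 6.74 in hSRY-ON. The groups did not overlap, the means were 7.15 ± 0.20 and 6.54 ± 0.24 (SD, n = 3), and the difference of -0.62 (95% interval -0.98 to -0.26) had an adjusted p of 0.0863. The second gave 9.66, 9.62 and 9.68 against 9.71, 9.67 and 9.61, a difference of 0.0091 whose 95% interval of -0.17 to 0.18 does not reach the interval of the first. Ntn4, a netrin of basement membranes, had 6.57, 6.37 and 6.76 against 6.52, 6.46 and 5.69, so its difference of -0.34 rested on hSRY-ON array 3 and was -0.08 without it. The repulsive netrin receptors Unc5a, Unc5b and Unc5c differed by 0.12, -0.15 and 0.0049, with overlapping groups. The Unc5b value moved with single arrays. Leaving out hSRY-OFF array 1 or 3 gave -0.03 or -0.27, and leaving out hSRY-ON array 1 or 2 gave -0.07 or -0.25. No probe was listed under the symbols Ntn1 (netrin-1) or Robo3, and no probe of Dcc was tested.

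Netrin-G proteins, membrane-anchored relatives of the netrins that organise synapses, had 4 of 4 probes above 0 and no probe without overlap. Without hSRY-OFF array 2 they had 2 above and 2 below 0, and the median went from 0.06 to 0.02. An Ntng1 probe had widely spread arrays, at 7.53, 6.28 and 7.10 in hSRY-OFF and 7.25, 7.52 and 7.85 in hSRY-ON. Its difference of 0.57 had a 95% interval of -0.16 to 1.31 and an adjusted p of 0.341, and it was 0.23 without hSRY-OFF array 2. The other Ntng1 probes gave 0.07 and 0.05, and Ntng2 gave 0.04.

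**Figure D3:**
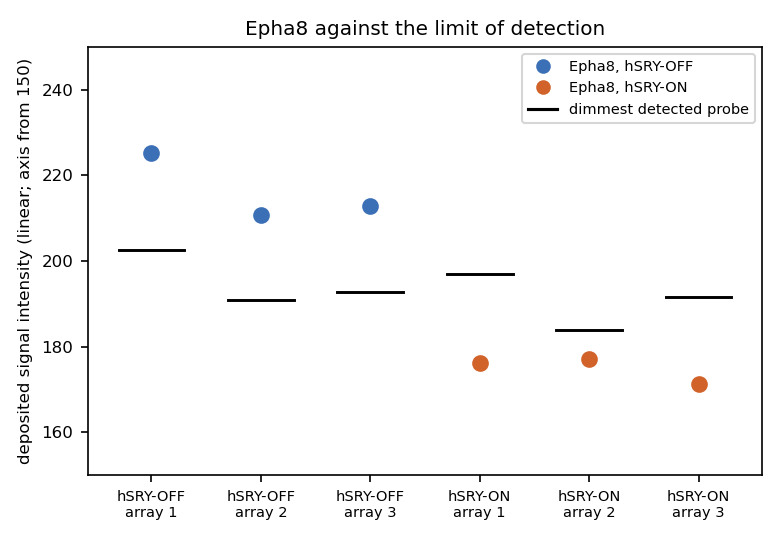
Deposited intensity of the Epha8 probe on each array (vertical axis, linear bead intensity, an axis that does not start at 0) with the dimmest intensity called detected on the same array as a horizontal mark. Epha8 lies above the mark on the 3 hSRY-OFF arrays, at 211 to 225, and under it on the 3 hSRY-ON arrays, at 171 to 177.

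Several probes of a gene gave a check that did not use other animals. Among the 50 tested genes, 15 had more than 1 tested probe, 36 probes in all. In 8 of them all probes lay on the same side of 0, higher for Efna4, Efna5, Nrp1, Ntng1, Sema3f and Sema6b and lower for Sema6a and Sema7a. Single arrays turned some of these, since all 4 Sema6b probes lay below 0 without hSRY-ON array 3 and both Efna4 probes without hSRY-OFF array 1. In the other 7, Epha3, Epha7, Ntn2l, Sema3b, Sema5a, Sema6c and Sema6d, they lay on both sides. The median distance between the highest and lowest difference of a gene was 0.16, as large as many of the differences themselves. Probes of one gene share their RNA samples and may detect different transcripts.

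**Figure D4:**
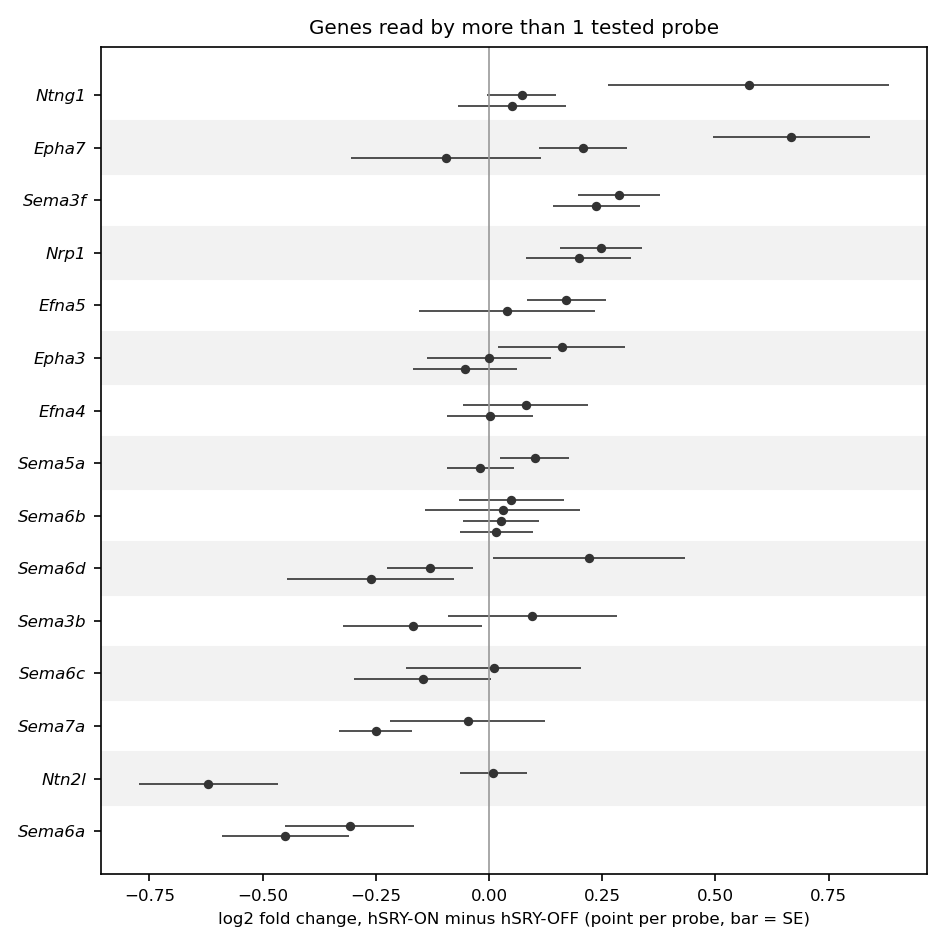
Log2 difference between hSRY-ON and hSRY-OFF (horizontal axis, log2 units) of every tested probe for the 15 guidance genes with more than 1 tested probe, with a point for each probe and a bar for its SE to either side. Probes of Epha7 spread from -0.10 to 0.67 and those of Ntn2l from -0.62 to 0.0091, while both Sema3f and both Nrp1 probes lie between 0.20 and 0.29.

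For 15 of the 65 genes no probe was tested: Epha1, Epha2, Epha6, Epha10, Ephb3, Efna2, Efnb2, Sema3c, Sema3g, Plxna1, Plxna3, Plxna4, Plxnc1, Unc5d and the Unc5c-like gene Unc5cl, which shares the symbol stem without being a netrin receptor. Of the 30 untested probes, 22 were detected on no array, 4 on 1 array and 4 on 2 arrays. The last 4 belong to Ephb3, Nrp2, Ntng2 and Sema6c, and their intensities ran from 172 to 219. Just inside the filter, with 3 detections, were probes of Epha8, Nrp2, Sema3b and Sema3e, whose intensities ran from 171 to 225. Low signal on such arrays does not show that a gene was silent.

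Of 57 listed co-receptors, cytoplasmic effectors and other cues, 37 genes had 53 tested probes, 29 above and 24 below 0. None passed limma's test, and 5 had an unadjusted p under 0.05, which is 9.43% beside 20.9% of all tested probes. Higher in hSRY-ON were 1 probe of Dpysl4, a collapsin response mediator (0.38, adjusted p 0.0702), and Vav3 (0.32, adjusted p 0.161). So were the kinase Pak1 (0.34, adjusted p 0.145) and the adhesion molecule Chl1 (0.33, adjusted p 0.213). The kinase Cdk5 was lower (-0.28, adjusted p 0.101). The other Dpysl4 probes, both brighter, gave 0.12 and 0.30, at adjusted p of 0.467 and 0.276. The groups did not overlap for 7 of the 53 probes, or 13.2%, beside 27.7% of all tested probes.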

How the data were processed

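The bead intensities and detection p-values of all 6 arrays were deposited by the authors as 1 table, not normalized, with 1 intensity and 1 detection p-value per probe and array. The labels name limma, and the study's methods name TCC without settings, which was not used here. The genome build behind the probes is not given in the sources used here.

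Intensities were background-corrected with neqc of limma 3.58.1 (R 4.3.3) from the detection p-values, with an offset of 16, quantile normalized and taken to log2. Probes detected at p under 0.05 on at least 3 arrays were tested with lmFit and eBayes, hSRY-ON minus hSRY-OFF, with Benjamini-Hochberg adjustment over all of them. The methods describe the arrays as separate animals, and 3 per group limit the precision. The fit was also run on simulated data with changes of 1 log2 unit and a spread drawn from the fit itself. That run does not show how well smaller differences are found.

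Genes were named if called, if at an unadjusted p under 0.05 without overlap, or as the probe with the largest absolute difference or highest mean of a family, with all tested probes of that gene. Other members are given by value or range, and some were described after their values were seen. Members and lists were chosen with earlier results of these data known. Array symbols were matched to RefSeq, 64 directly and 1 as a synonym. Alternatives covered background correction, scaling, filter, prior, threshold, replicate block, 1 probe per symbol and leaving out each array.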

Additional observations from a re-analysis of the deposited data

How the results depend on the processing

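The count of guidance probes called, 1 in the reported fit, was 5 without background correction (Epha7, Epha8, Ntn2l, Sema3f and Sema7a), 2 with normexp and an offset of 50 (Epha8 and Ntn2l), 6 with a trended and robust prior (the 5 and Sema4g) and 4 at an adjusted p under 0.1 (Epha7, Epha8, Ntn2l and Slit3). With detection at p under 0.01 required on all 6 arrays it was 1, for Ntn2l, since Epha8 was no longer tested. Leaving out 1 array at a time gave 0 to 1 calls, the 1 without hSRY-ON array 3. Over all probes the count of 311 became 1317 without background correction, 860 with normexp, 123 without a filter, 708 with the strict filter, 1447 with the other prior and 1011 at the looser threshold, and ran from 0 to 392 without 1 array. Other guidance genes, with 0 calls, had 2 without background correction and 1 each with normexp, the strict filter, the other prior and the looser threshold. The cause of these changes was not tested.

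Same-numbered arrays correlated at 0.0404, 0.0294 and 0.025 in their deviations from the group means, under 0.1, so the numbers were not taken as pairs. With the replicate number as a block, 0 guidance probes and 0 of all probes were called, and 10 guidance probes had an unadjusted p under 0.05. Epha8 had an adjusted p of 0.099 there and between 0.00693 and 0.0355 under the other alternatives that tested it on all 6 arrays.

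The median difference of the guidance probes ran from -0.0049 to 0.0581 without 1 array. Slit2 turned to -0.0222 under median scaling and -0.0028 under cyclic loess, Unc5c to -0.0224 and -0.0039, and the second Ntn2l probe to -0.0183 under median scaling. Without 1 array, Ephb1 ran from -0.0512 to 0.0927, Sema4a from -0.0168 to 0.0566, that Ntn2l probe from -0.0133 to 0.0365, Slit2 from -0.0282 to 0.0515 and Unc5c from -0.0420 to 0.0400. All 24 guidance probes with an absolute difference of at least 0.2 kept their sign in the 6 fits without an array, and 42 of all 71 did. Probes detected on only 3 arrays, of Epha8, Nrp2, Sema3b and Sema3e, are limited by signals near background.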
